A study of Homo sapiens with 8 samples.

Results

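The genes described here are 10 genes of the SIPA1 family and the Rap1 switch, out of 19974 protein-coding genes on chromosomes 1 to 22 and X. They comprise SIPA1, SIPA1L1, SIPA1L2 and SIPA1L3, the GTPase-activating protein genes RAP1GAP and RAP1GAP2, the exchange factor genes RAPGEF1 and RAPGEF2, and the GTPase genes RAP1A and RAP1B. The set was chosen by name after covered bases of these same peak lists were known, because SIPA1L3 had far fewer covered bases in the knockout list, so the counts below describe the set and support nothing by themselves. Monomethylation of lysine 4 of histone H3 (H3K4me1), a mark of enhancers and of the flanks of active promoters, was profiled by ChIP-seq in MDA-MB-231 cells with a knockout of ARID1A and in their controls. MDA-MB-231 is a human breast cancer cell line of the triple-negative type, and ARID1A belongs to the SWI/SNF complex, which moves nucleosomes. Each genotype had 2 immunoprecipitated and 2 input samples and contributed 1 deposited peak list. The sources used here do not give how the knockout was made or whether its cells were 1 clone.

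Rap1 is a small GTPase that works as a switch. Exchange factors load it with GTP and turn it on, and GTPase-activating proteins speed up GTP hydrolysis and turn it off. Active Rap1 strengthens adhesion through integrins and stabilises cadherin junctions, which makes it a regulator of spreading and migration in epithelial and cancer cells. The SIPA1 proteins share a GTPase-activating domain for Rap with RAP1GAP.

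The knockout list held 73600 peaks covering 176.3 Mb and the control list 82994 peaks covering 183.2 Mb on these chromosomes. Since each genotype had 1 list, no spread over replicates could be had, and every difference below describes these lists without a test. Read totals were not used here, and the depth behind a peak is unknown. Defining genes of the mesenchymal state of this line carried peaks in both lists. VIM, CD44, CAV1 and AXL had between 19.2% and 53.8% of their windows covered in the knockout list and between 21.0% and 47.5% in the control list. Luminal ESR1, GATA3 and FOXA1 and epithelial CDH1 and EPCAM carried peaks in both lists as well. Their covered shares ran from 6.01% to 36.3% in the knockout list and from 5.67% to 35.7% in the control list. GATA3 (36.3% and 35.7%), FOXA1 (19.4% and 29.2%) and CDH1 (22.1% and 15.7%) were near mesenchymal genes such as VIM (38.4% and 36.2%) and AXL (19.2% and 21.0%). Coverage thus did not set the mesenchymal genes apart. The progesterone receptor gene PGR, also a luminal marker, had 0 covered bases in the knockout list and 1081 in the control list. Coverage at a gene shows where the mark was called and not how much RNA was made.

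H3K4me1 coverage was lower in the knockout list at most of the 10 genes, and most of the shortfall lay at SIPA1L3. Coverage was counted over each RefSeq record plus 5000 bases on either side, and a gene was called when the lists differed by at least 1000 bases. By that rule 7 of the 10 genes had fewer covered bases in the knockout list (SIPA1, SIPA1L2, SIPA1L3, RAP1GAP, RAPGEF2, RAP1A and RAP1B) and 2 had more (SIPA1L1 and RAP1GAP2), while RAPGEF1 was under the threshold. Of all protein-coding genes, 30.0% were called lower and 20.2% higher. Among the 3704 genes with windows of at least 100 kb, as 7 of the 10 have, 44.6% were called lower and 31.6% higher. Together the 10 windows held 126 peaks and 273804 covered bases in the knockout list, against 140 peaks and 365050 bases in the control list. Without SIPA1L3 the sums were 233436 bases in the knockout list and 262270 in the control list, a ratio of 0.890 against 0.962 for the whole lists. The median difference over the 10 genes was -5051.5 bases, beside 0 over all genes and -529.5 over genes with long windows.

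**Figure D1:**
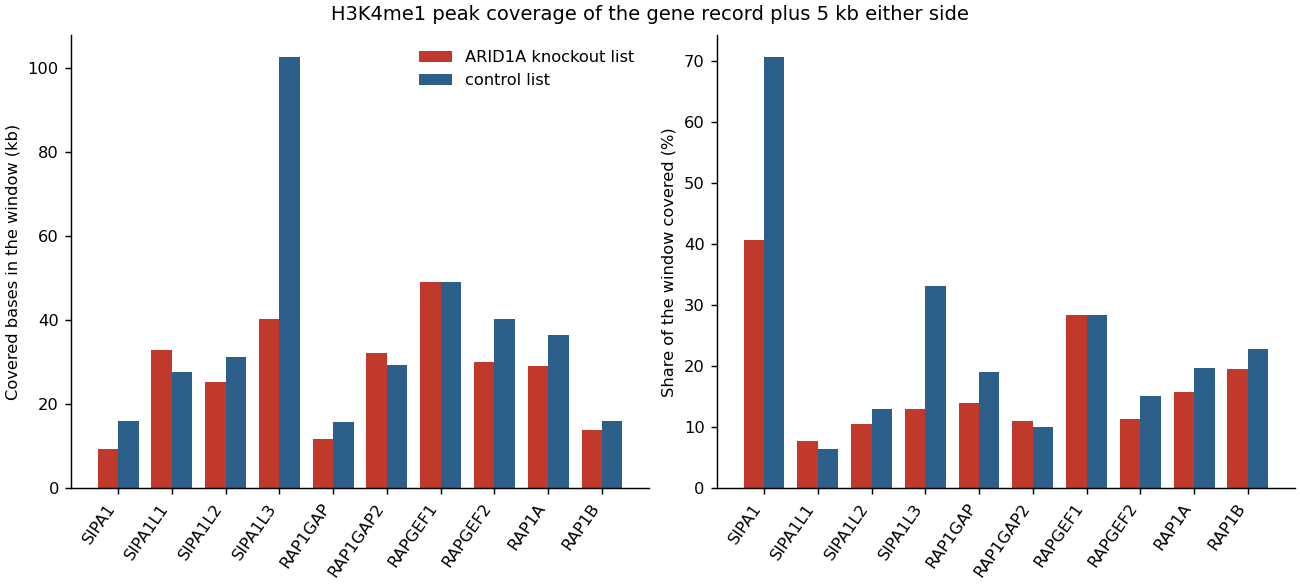
Covered bases (left, kb) and the covered share of the window (right, %) at each gene, in the ARID1A knockout list (red) and the control list (blue). The bars of SIPA1L3 differ most, 40368 against 102780 bases, and those of RAPGEF1 are nearly level.

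Per length, SIPA1 was the most densely marked of the genes and SIPA1L1 the least in both lists. The covered share of the window was 40.6% in the knockout list and 70.6% in the control list at SIPA1, and 7.65% and 6.45% at SIPA1L1. SIPA1L3 stood second in the control list at 33.0% but at 13.0% it stood sixth in the knockout list, behind RAPGEF1, RAP1B, RAP1A and RAP1GAP. RAPGEF1 was level, with 28.3% and 28.4%. The lists often marked the same bases. At RAPGEF1, 80.7% of the bases covered in either list were covered in both, against 36.1% at SIPA1L3 and 37.0% at SIPA1L2, with 54.8% over the whole lists.

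SIPA1L3, which encodes a SIPA1-like protein known for roles in epithelial polarity and in eye development, had 40368 covered bases in 12 knockout peaks and 102780 in 21 control peaks (chromosome 19, 37907208 to 38208369, hg38). That difference of -62412 bases ranked 3 among the deficits of the 19974 genes. Every knockout peak overlapped a control peak, and 94.1% of the knockout bases were covered in the control list too. The knockout coverage was thus nearly nested in the control coverage. Of the 64776 bases covered in the control list alone, 25711 lay in 9 peaks with no knockout counterpart and 39065 lay in control peaks that overlapped a knockout peak. The median peak width was 2471.5 bases in the knockout list and 3854 in the control list.

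The difference at SIPA1L3 lay from the 5′ end to the middle of the gene, where nearly all of its control coverage lay. With the record cut into 5 equal parts from its 5′ end, part 1 held 11865 covered bases in the knockout list and 33768 in the control list. Part 2 held 13242 and 38723, and part 3 held 14064 and 28011. Part 4 held 1197 bases in the knockout list and 1588 in the control list, and part 5 held 0 in both. Some wide control peaks were matched by a narrower knockout peak. A control peak of 17656 bases that began 68197 bases from the 5′ end faced a single knockout peak of 3311 bases. Close to the start site, a knockout peak of 2799 bases faced a control peak of 6949 bases.

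The strongest peaks of SIPA1L3 were present in both lists. The −log10 q values quoted were computed by the authors, and they serve only to order the peaks of 1 list. In the knockout list the top peaks were those at 38057521 to 38062581 (−log10 q 15.4, 5061 bases wide) and at 38077735 to 38081061 (15.1, 3327 bases). In the control list they were those at 37995093 to 38006746 (18.0, 11654 bases) and at 38057175 to 38064455 (15.1, 7281 bases). These 4 peaks stood at percentiles 97.7, 97.6, 99.2 and 98.3 of −log10 q in their own list. The 3 widest control peaks without a knockout counterpart among all 10 genes also lay in SIPA1L3. They were 8393, 4949 and 3854 bases wide with −log10 q of 2.82, 2.15 and 5.49, so the widest of them was below the control median of 3.18. Among strong peaks, here those with −log10 q of 5 or more, the difference was -27493 bases (28707 in the knockout list, 56200 in the control list). Over the whole lists, 37.5% of knockout peaks and 28.8% of control peaks were strong by this threshold, so it does not select like shares of the lists. A threshold of 4-fold enrichment selected like shares, 17.4% of knockout peaks and 17.6% of control peaks. With it the difference at SIPA1L3 was -2774 bases (27290 in the knockout list, 30064 in the control list). The control peak of 17656 bases, at 3.82-fold, fell just under that threshold.

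Among other genes with windows of at least 100 kb, the 3 whose pair of values lay nearest to that of SIPA1L3 were CAMTA1, COL8A1 and ZFAND3. Likeness was the distance over the 2 covered-base values, and the nearest gene was still 20841 bases away. CAMTA1, a transcription factor gene, had 47084 bases in the knockout list and 83051 in the control list. The collagen gene COL8A1 had 47107 and 82751, and ZFAND3 had 40555 and 80429. Window length was not part of the likeness, and the covered shares of the windows differed. In the knockout and control lists they were 4.74% and 8.35% at CAMTA1, 27.6% and 48.5% at COL8A1 and 11.8% and 23.3% at ZFAND3. SIPA1L3 had 13.0% and 33.0%.

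The annotated start site of SIPA1L3 lay in no peak of either list. The nearest peak downstream began 926 bases away in the knockout list and 1052 bases away in the control list. A weak control peak ended 687 bases upstream and had no knockout counterpart. The start window is shown because it is the CpG-rich stretch that neither list covered (RefSeq, GRCh38.p14, chr19:37906958-37907257, plus strand, 250 bases before to 50 after the start, CG dinucleotides in capitals).
SIPA1L3 start: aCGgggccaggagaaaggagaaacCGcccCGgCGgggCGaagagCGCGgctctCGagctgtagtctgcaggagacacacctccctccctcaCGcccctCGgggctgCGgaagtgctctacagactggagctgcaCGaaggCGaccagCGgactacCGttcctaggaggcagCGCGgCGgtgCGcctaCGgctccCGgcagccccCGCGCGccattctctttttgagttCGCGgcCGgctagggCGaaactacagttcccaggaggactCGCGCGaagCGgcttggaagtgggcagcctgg

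SIPA1, the founding member, is a GTPase-activating protein for Rap1 whose gene has been linked to metastasis of mammary tumours in mice. It had 9255 covered bases in 3 knockout peaks and 16107 in 2 control peaks (chromosome 11, 65638101 to 65650912). A single control peak of 12201 bases ran from upstream of the first start site through most of the gene, with a −log10 q of 11.3. In its place the knockout list had separate peaks of 2726 and 3942 bases, with a −log10 q of 5.83 and 5.85. All knockout bases were covered in the control list as well. The peaks past the 3′ end, 2587 bases wide in the knockout list and 3906 in the control list, reached into the record of RELA, an NF-kB subunit gene. No knockout peak of SIPA1 reached 4-fold enrichment, whereas the large control peak did (4.40), so that peaks of that strength covered 0 and 12201 bases.

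SIPA1 has a pair of annotated start sites 2020 bases apart, and the lists treated them differently. The first start lay inside a peak of both lists. The second lay in a control peak only, with the knockout peak ending 259 bases before it. It was the only one of 20 annotated starts of the set that lay in a peak of the control list alone. The windows are shown because they differ in base composition, with 25 CG dinucleotides in the first (chr11:65637851-65638150, plus strand) and 1 in the second (chr11:65639871-65640170, plus strand).
SIPA1 first start: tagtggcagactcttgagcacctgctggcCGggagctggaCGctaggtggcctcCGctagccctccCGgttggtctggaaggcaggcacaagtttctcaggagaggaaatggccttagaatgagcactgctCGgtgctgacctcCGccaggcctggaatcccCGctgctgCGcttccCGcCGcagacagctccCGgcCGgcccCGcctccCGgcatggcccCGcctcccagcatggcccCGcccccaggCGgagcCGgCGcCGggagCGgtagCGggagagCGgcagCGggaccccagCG
SIPA1 second start: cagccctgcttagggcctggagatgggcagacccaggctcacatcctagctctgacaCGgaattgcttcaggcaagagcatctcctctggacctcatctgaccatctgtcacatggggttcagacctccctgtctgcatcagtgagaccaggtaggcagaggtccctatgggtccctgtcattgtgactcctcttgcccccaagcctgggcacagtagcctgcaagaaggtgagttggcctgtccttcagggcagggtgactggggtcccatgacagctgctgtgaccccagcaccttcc

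SIPA1L1, also called SPAR1 or E6TP1, is a SIPA1-like protein described at synapses in rat neurons, and it went the other way. It had 32944 covered bases in 22 knockout peaks and 27797 in 16 control peaks (chromosome 14, 71320476 to 71741209). All 16 control peaks overlapped a knockout peak, and 6 knockout peaks had no control counterpart. Those 6 were weak, with a −log10 q of at most 2.61. Of its peaks, 9 of 22 were strong in the knockout list and 3 of 16 in the control list, beside the 37.5% and 28.8% of all peaks given above. Among these strong peaks the excess was 15376 bases (21919 in the knockout list, 6543 in the control list). The top knockout peak lay at 71371006 to 71374792 (13.6). The control list had its top peak at 71591453 to 71592810 (7.66). In part 1 of 5 the order was the opposite, with 11641 knockout and 14779 control bases, and in parts 2 to 5 the knockout list covered more.

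SIPA1L2, also called SPAR2, had 25401 covered bases in 17 knockout peaks and 31358 in 20 control peaks (chromosome 1, 232397965 to 232630496). Its difference of -5957 bases was at the 5′ side. In parts 1 and 2 of 5 the knockout list covered 4662 and 4217 bases and the control list 11025 and 7691. In parts 3 to 5 the knockout list covered more, as in part 4 with 4811 bases against 1872. There were 3 knockout and 7 control peaks without a counterpart. Among strong peaks the direction turned, to 11421 bases in the knockout list and 8923 in the control list. The input pileup implied by the peaks' pileup and fold enrichment, here called the implied background, had a median of 5.72 in the knockout list and 3.51 in the control list, against 4.61 and 3.70 over the whole lists. The ratio was 1.31 times that of the whole lists, and its part in this result was not tested. At SIPA1L3 the medians were 5.52 in the knockout list and 4.97 in the control list, a ratio 0.892 times that of the whole lists. At SIPA1 the ratio was also 0.892 times, and its part at these genes was not tested either.

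**Figure D2:**
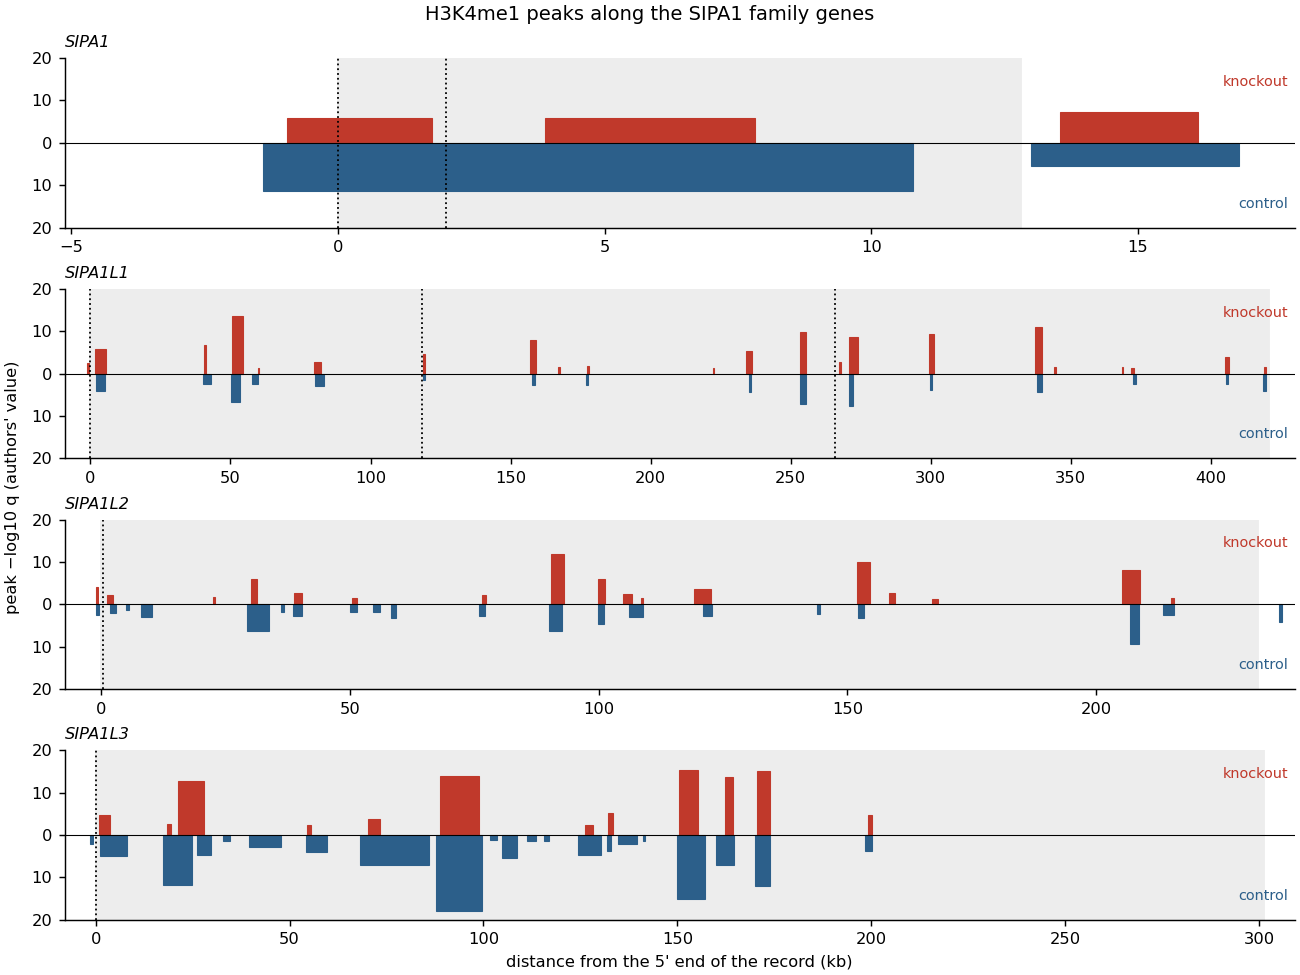
Peaks along the 4 SIPA1 family genes, by distance from the 5′ end of the record (kb), with knockout peaks drawn upward and control peaks downward. Bar width is peak width, bar height the authors' −log10 q, which ranks peaks within a list only, grey the record and dotted lines the annotated start sites. At SIPA1L3 12 knockout peaks face 21 control peaks, with median widths of 2471.5 and 3854 bases.

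RAP1GAP, which encodes a GTPase-activating protein that turns Rap1 off, had 11612 covered bases in 8 knockout peaks and 15758 in 10 control peaks (chromosome 1, 21596221 to 21669357). The strongest peak was the same in both lists, at 21638012 to 21640647 in the knockout list (−log10 q 11.7) and at 21637644 to 21640436 in the control list (12.5). The second was also shared, 779 bases wide in the knockout list and 1582 in the control list. There were 3 control peaks and 1 knockout peak without a counterpart, and the difference was -4146 bases.

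RAP1GAP2, a paralog studied in platelets, had 32162 covered bases in 16 knockout peaks and 29235 in 14 control peaks (chromosome 17, 2755645 to 3037741). The strongest peaks coincided. They lay at 2949010 to 2950930 (11.5) and 2954084 to 2961440 (11.3) in the knockout list, and at 2949187 to 2950930 (15.1) and 2954252 to 2961461 (11.7) in the control list. A knockout peak of 1074 bases had a −log10 q of 7.71 and no control counterpart, the strongest such knockout peak of the 10 genes. The small excess of 2927 bases did not hold among strong peaks. Strong peaks covered 20369 bases in the knockout list and 22791 in the control list, and at 4-fold enrichment 2995 and 16814.

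Of the 5 annotated start sites of RAP1GAP2, the second lay in a peak of the knockout list only. That peak, 1873 bases wide with a −log10 q of 2.77, was the widest knockout peak of the set without a control counterpart. The start window held 15 CG dinucleotides and is shown because the knockout list alone covered it (chr17:2796188-2796487, plus strand).
RAP1GAP2 second start: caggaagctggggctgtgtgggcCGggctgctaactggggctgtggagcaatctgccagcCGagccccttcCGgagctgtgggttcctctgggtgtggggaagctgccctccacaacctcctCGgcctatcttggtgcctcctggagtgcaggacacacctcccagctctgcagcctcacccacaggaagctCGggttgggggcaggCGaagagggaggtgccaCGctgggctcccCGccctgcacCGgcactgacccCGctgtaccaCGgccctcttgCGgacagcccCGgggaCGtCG

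RAPGEF1 is an exchange factor for Rap1 that the adaptor CRK binds, and its coverage was nearly identical in the lists. It had 49016 bases in 15 knockout peaks and 49148 in 15 control peaks (chromosome 9, 131576775 to 131740076). The peak nearest its first start, 12149 bases wide in the knockout list and 11818 in the control list, had a −log10 q of 13.0 and 14.4. The top peaks were a knockout peak at 131673591 to 131680869 (15.9) and a control peak at 131675953 to 131680777 (18.5). The knockout list had 1 peak without a counterpart and the control list 0. The difference of -132 bases is under the threshold. It was 4209 bases among strong peaks, 517 bases with 50000 bases on either side, and -6746 bases at 4-fold enrichment.

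RAPGEF2, also called PDZ-GEF1, is an exchange factor for Rap1 and Rap2. It had 30053 covered bases in 14 knockout peaks and 40313 in 24 control peaks (chromosome 4, 159103079 to 159360173). Of the 24 control peaks, 10 had no counterpart, and of the 14 knockout peaks 2 had none. That control count was the highest of the set, but as a share it was much like 9 of 21 at SIPA1L3 and 6 of 14 at RAP1A. Over the whole control list 71.8% of peaks were shared. The 10 control peaks at RAPGEF2 were all weak, with a −log10 q of at most 2.28. The strongest peaks were moderate, with a −log10 q of 5.12 at 159357979 to 159361823 in the knockout list and 7.99 at 159271697 to 159275404 in the control list. The deficit of -10260 bases also stood among strong peaks, with 3845 bases in the knockout list and 12574 in the control list. At 4-fold enrichment the values were 0 and 8500. The implied input background ratio was 1.15 times that of the whole lists, and its part was not tested.

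The first start site of RAPGEF2 lay in no peak. Both inner starts, 124599 and 126299 bases from the first, lay in a single knockout peak of 4002 bases, whereas the control list had a peak of 1707 bases over the second start and a gap at the third. The third start window is shown because the knockout list alone covered it. It held 3 CG dinucleotides (chr4:159229128-159229427, plus strand).
RAPGEF2 start 3: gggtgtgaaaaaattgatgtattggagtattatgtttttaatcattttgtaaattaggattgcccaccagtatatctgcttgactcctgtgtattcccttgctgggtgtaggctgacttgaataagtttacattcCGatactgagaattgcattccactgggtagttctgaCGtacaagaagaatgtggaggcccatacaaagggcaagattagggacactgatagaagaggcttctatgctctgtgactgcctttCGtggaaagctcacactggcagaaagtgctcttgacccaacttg

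The GTPase genes themselves had fewer covered bases in the knockout list. RAP1A had 29178 in 12 knockout peaks and 36431 in 14 control peaks (chromosome 1, 111542009 to 111716691). Its top peak lay at 111604026 to 111605875 in the knockout list (−log10 q 8.64) and at 111604545 to 111606218 in the control list (11.4). Upstream of the start, a control peak of 3888 bases (9.56) corresponded to knockout peaks of 418 and 1061 bases. That stretch also lies in the record of TMIGD3, which overlaps 26954 bases of the window. The overlap held 9845 covered bases in the knockout list and 14535 in the control list, most of the difference at RAP1A. Coverage in the overlap cannot be given to 1 gene. The implied input background ratio of the window was 0.713 times that of the whole lists, the lowest of the 10 genes, and its part was not tested. With 50000 bases on either side the difference was -14213 bases, and among strong peaks -3424 bases (15733 in the knockout list, 19157 in the control list).

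RAP1B, the close paralog of RAP1A, had 13815 covered bases in 7 knockout peaks and 16123 in 4 control peaks (chromosome 12, 68610899 to 68671901). Its widest peaks lay just inside the gene. A control peak of 9929 bases (−log10 q 4.94) at 68612715 to 68622643 corresponded to knockout peaks of 4751 bases (8.29) and 2255 bases. No control peak here reached a −log10 q of 5, so that strong peaks covered 6342 bases in the knockout list and 0 in the control list. At 4-fold enrichment the values were 4751 and 0. The direction at RAP1B thus turned under both stricter thresholds. The control peak of 9929 bases lay just under each of them, at a −log10 q of 4.94 and 3.74-fold, and so dropped out whole.

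**Figure D3:**
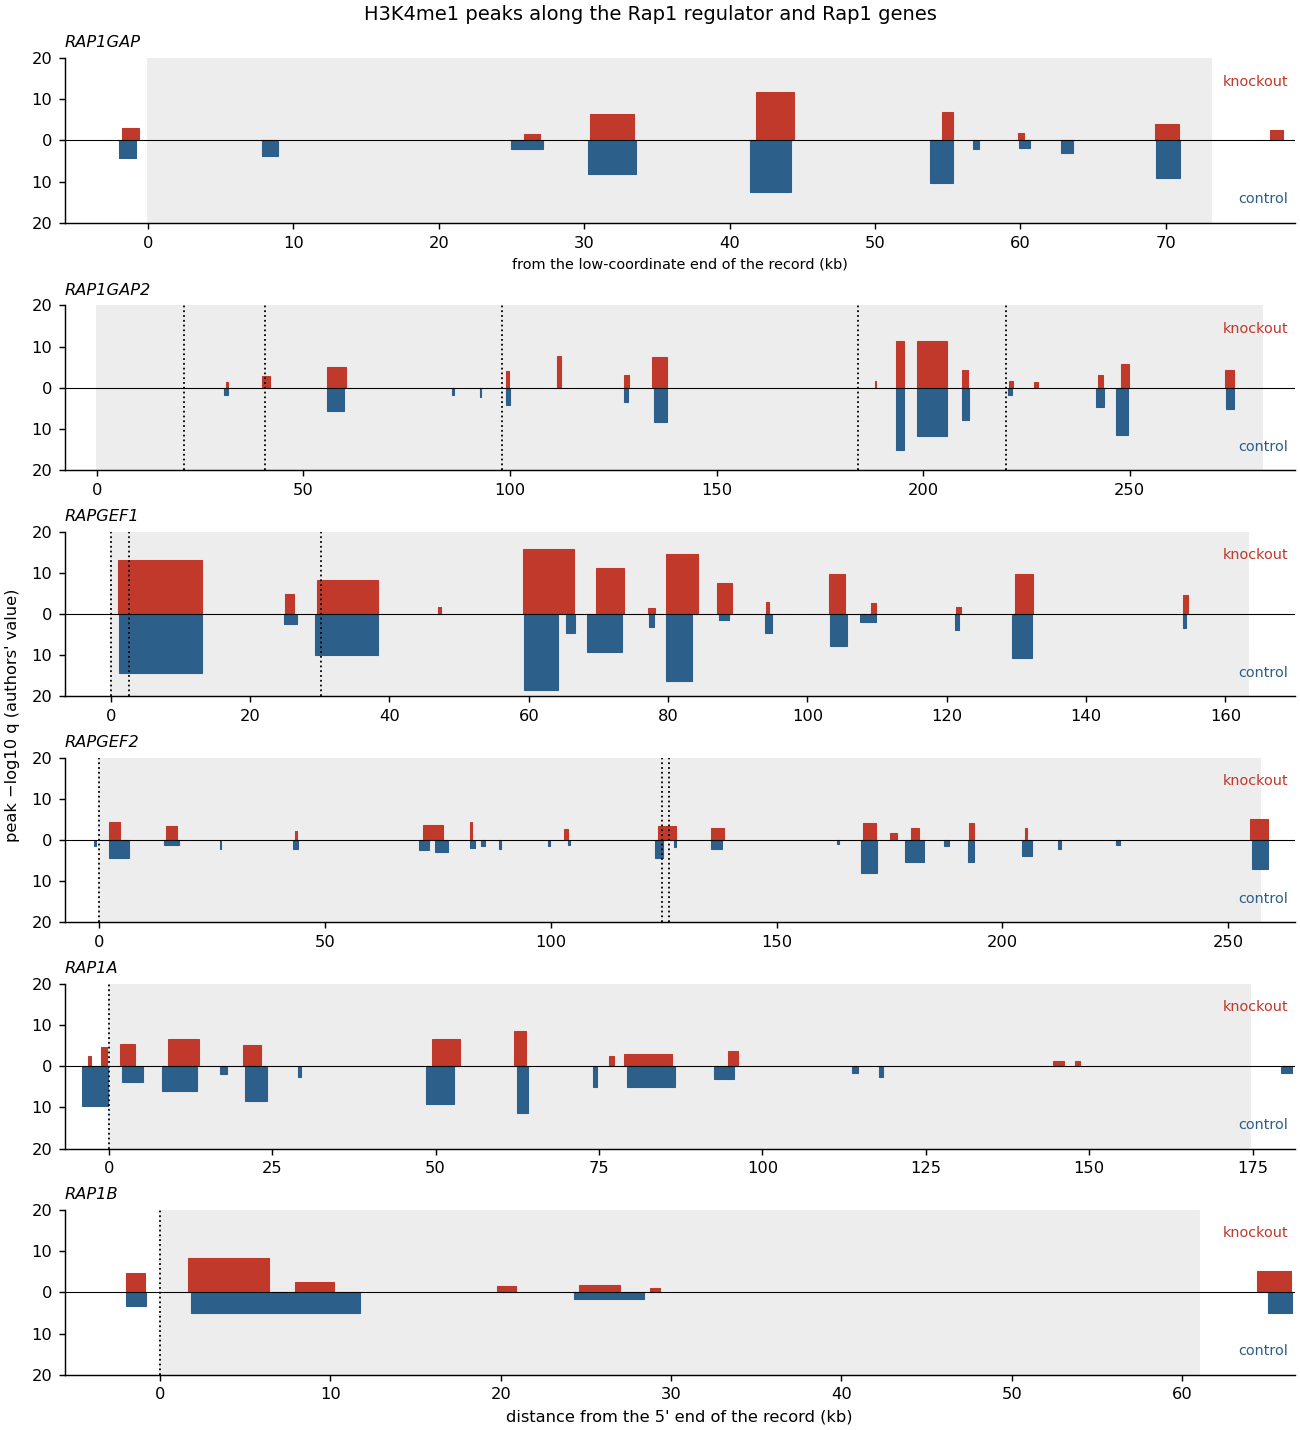
Peaks along the 6 Rap1 regulator and Rap1 genes, drawn as for the SIPA1 family, with knockout peaks upward and control peaks downward (height: the authors' −log10 q, within a list only). RAP1GAP runs from the low-coordinate end of its record. At RAPGEF1 15 knockout peaks face 15 control peaks, and at RAPGEF2 14 knockout peaks face 24 control peaks.

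The peaks of the 10 genes were shared between the lists about as often as peaks in general. Of the 126 knockout peaks, 104 overlapped a control peak (82.5%, 95% exact interval 74.8 to 88.7), against 78.7% of all knockout peaks. Of the 140 control peaks, 103 overlapped a knockout peak (73.6%, 65.5 to 80.7), against 71.8% of all. The intervals reflect the counting of peaks and no variation between samples. The control peaks without a counterpart lay mainly in RAPGEF2 (10), SIPA1L3 (9), SIPA1L2 (7) and RAP1A (6), with 3 in RAP1GAP, 2 in RAP1GAP2 and 0 in SIPA1, SIPA1L1, RAPGEF1 and RAP1B.

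At the CpG-rich starts of active genes H3K4me1 usually flanks the start, where trimethylation takes its place. The 9 genes with entries had 20 annotated start sites, of which 4 lay in peaks of both lists, 2 in the knockout list only, 1 in the control list only and 13 in neither. That is 6 of 20 (30.0%) in the knockout list and 5 of 20 (25.0%) in the control list, against 24.1% and 15.0% of 22132 starts of protein-coding genes. Most starts had a peak within 3000 bases, 18 in the knockout list and 16 in the control list (68.1% and 70.1% of all starts). The motif CG, which reads the same on both strands, was present in all 20 windows and in 98.1% of all start windows. Among the 9 windows with at least 20 CG dinucleotides, 1 start lay in a peak in each list, the first start of SIPA1 printed above (26.3% and 12.8% of all such starts). Of the 9 with fewer than 10, 4 did in each list (19.3% and 18.5%). In the knockout list all 4 belonged to RAPGEF1 and RAPGEF2, and in the control list to these genes and SIPA1. Starts of 1 gene can share a peak, as at RAPGEF2, so they are not separate observations. The first starts of SIPA1L1, SIPA1L2, SIPA1L3, RAP1GAP2, RAPGEF1, RAPGEF2 and RAP1B had between 29 and 49 CG dinucleotides in their windows and lay in no peak.

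The first peak downstream of the start began closer in the knockout list at most genes. Of the 8 first starts in no peak this held at 7, the exception being RAP1GAP2 with 10024 bases in the knockout list and 9539 in the control list. At the other 7 the distance was 878 to 2187 bases in the knockout list and 1052 to 2348 in the control list. The same order held at most coding starts. Among 8990 coding starts in no peak with a downstream peak within 10000 bases in both lists, the knockout peak began closer at 75.6%, with medians of 1171 and 1362 bases. RAP1GAP2, at 10024 bases in the knockout list, lies outside that limit, so only the other 7 first starts are counted by the same rule. The shortest peak was 361 bases in the knockout list and 312 in the control list, and the part of this difference between the calls in these distances was not tested.

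**Figure D4:**
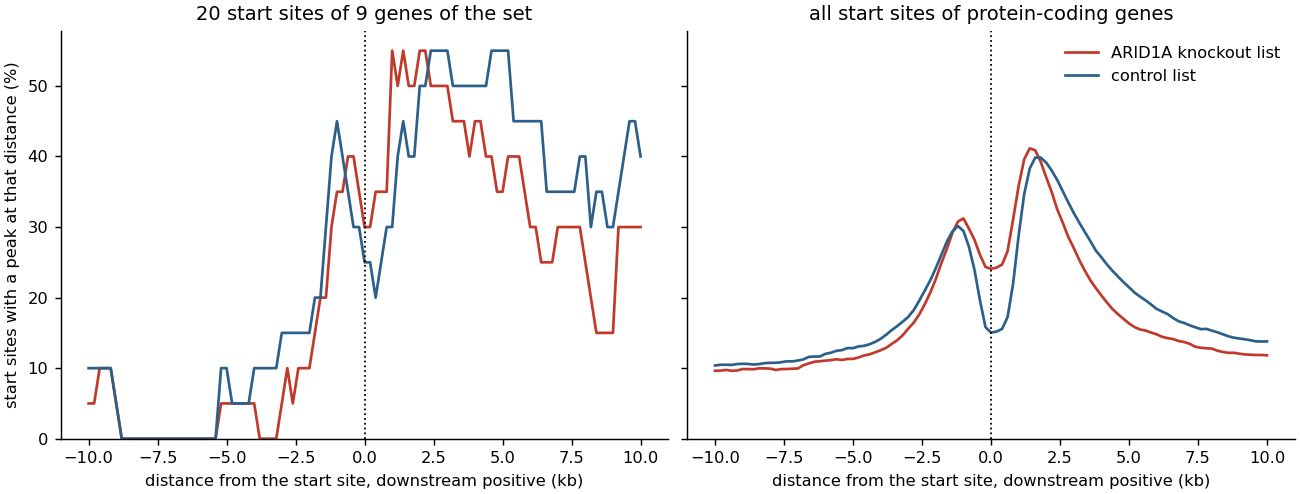
Share of start sites (%) that had a peak at each distance from the start (kb, downstream positive), for the 20 starts of 9 of the genes (left) and for 22132 starts of protein-coding genes (right), in the knockout list (red) and the control list (blue). Both panels dip at the start itself, where 30.0% and 25.0% of the 20 starts and 24.1% and 15.0% of all starts lay in a peak.

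Other genes of Rap1 signalling were taken from a list of 36, all of which matched a protein-coding symbol. That list too was chosen with earlier results of these data known, so its counts describe it and support nothing by themselves. Of these, 21 had at least 1000 fewer covered bases in the knockout list and 7 had more, beside 30.0% and 20.2% of all genes. The list includes long genes, and among all genes with windows of at least 100 kb 44.6% were called lower and 31.6% higher. Its median difference was -1403 bases, beside 0 over all genes and -529.5 over genes with long windows. Upstream adaptors and kinases were lower at 7 of 7, effectors at 7 of 12 (3 higher) and other exchange factors at 5 of 8 (2 higher). Of the related GTPases 1 of 5 was lower and 1 higher, as were 1 and 1 of the 4 other GTPase-activating proteins. RASA4, which has near-identical copies, had no peak in either list.

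The largest deficits of that list lay at BCAR3, ARHGAP29, CBL and PLCE1. BCAR3 (93561741 to 93848151) and ARHGAP29 (94168905 to 94314592) lie close together on chromosome 1, so their deficits may not be separate. BCAR3, an adaptor that binds the CRK partner BCAR1, had 113524 covered bases in the knockout list and 169190 in the control list. ARHGAP29, which acts downstream of Rap1 in endothelial cells, had 63809 and 77831, and CBL, a ubiquitin ligase that binds CRK, had 17394 and 27293. PLCE1, a phospholipase with an exchange factor domain for Rap1, had 15593 and 24398, with an implied background ratio 0.733 times that of the whole lists. That ratio was 1.01 at BCAR3, 1.10 at ARHGAP29 and 1.02 at CBL. The largest excesses lay at PARD3, DOCK4, RASA3 and RAP2A. PARD3, a polarity protein gene, had 150984 covered bases in the knockout list and 110915 in the control list, and DOCK4, an exchange factor gene, had 72578 and 52374. RASA3, a GTPase-activating protein for Ras and Rap, had 35810 and 33236, and the related GTPase RAP2A had 9680 and 7356. The implied background ratio was 1.39 times that of the whole lists at PARD3, 0.903 times at DOCK4, 1.17 times at RASA3 and 1.42 times at RAP2A, and its part at these genes was not tested.

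The 2 strength thresholds gave different balances. Among strong peaks, 6 of the 10 genes were lower in the knockout list and 4 were higher (SIPA1L1, SIPA1L2, RAPGEF1 and RAP1B), while 17.7% of all genes were lower and 26.7% higher. Over all genes too, more were higher than lower among strong peaks. In the list of 36, 12 genes were then lower and 12 higher. Among peaks of at least 4-fold enrichment, 8 of the 10 genes were lower and 2 higher (SIPA1L1 and RAP1B), and 17 of the 36 were lower and 6 higher, beside 19.4% and 14.5% of all genes. When a gene was called at 2000 bases in place of 1000, 15 of the 36 were lower and 4 higher, beside 18.7% and 11.0% of all genes. SIPA1, SIPA1L3, RAP1GAP, RAPGEF2 and RAP1A had fewer covered bases in the knockout list and SIPA1L1 more in each of the 8 settings with values, the reported one included.

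**Figure D5:**
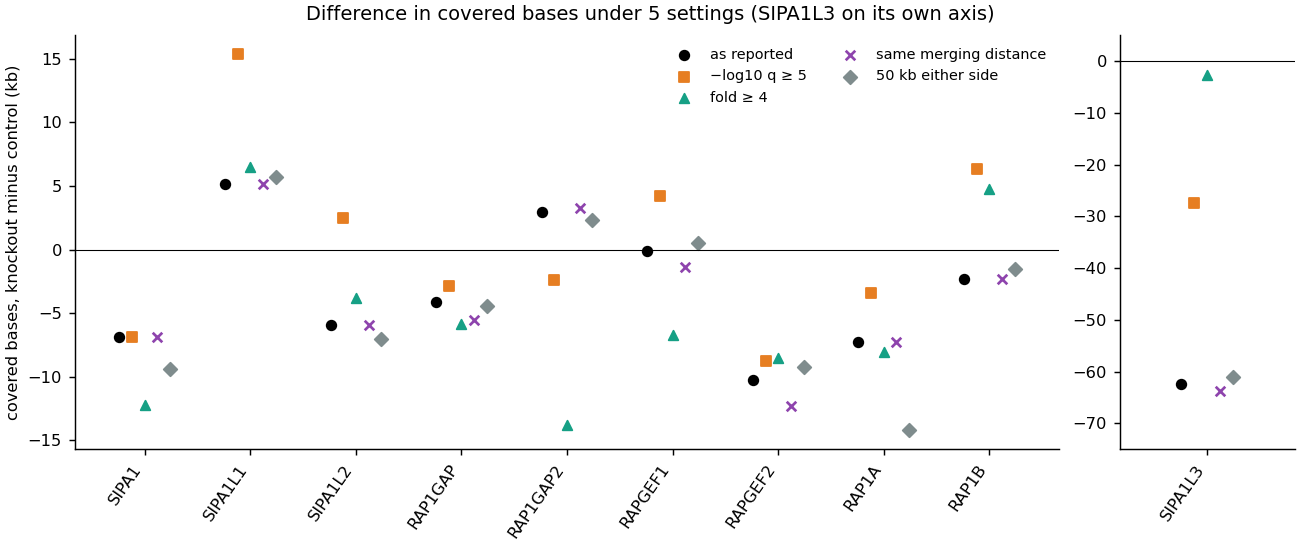
Difference in covered bases (kb, knockout minus control) at each gene as reported and under 4 alternatives, with SIPA1L3 on its own axis. RAP1B, RAP1GAP2, SIPA1L2 and RAPGEF1, which is near 0 as reported, change sign under an alternative, and SIPA1L3 runs from -62412 bases as reported to -2774 bases at 4-fold enrichment.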

How the data were processed

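H3K4me1 immunoprecipitates and inputs of 2 genotypes were mapped and called with Bowtie2 2.3.5.1 and MACS2 2.2.6 on hg38, per the submitters' processing notes. The sources used here do not give the settings. The protocol text names an H3K4me3 antibody where the antibody label says H3K4me1, the name used here. Every deposited peak has a pileup signal, a fold enrichment over input and a −log10 q value, per the file headers. How the replicates entered a call is not stated, and the lists were treated as pooled.

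Peaks off chromosomes 1 to 22 and X were left out (3 knockout, 6 control). Covered bases were counted in the RefSeq record (GRCh38.p14, the coordinates of hg38) plus 5000 bases either side with Python 3.11.15, numpy 2.4.6 and pandas 2.3.3, checked on simulated peaks. Sharing needed an overlap of 1 base, and intervals are exact (Clopper-Pearson, scipy 1.17.1). The implied input background is the median over a window's peaks of (pileup + 1) / fold − 1, assuming a pseudocount of 1. The table used has no exons, so peaks were not classed as exonic or intronic. Start sites came from the RefSeq promoter table. The 10 genes and the list of 36 were chosen with earlier results of these data known. Named peaks are the 2 of highest −log10 q per gene and list and the 3 widest without a counterpart per list. Of the list of 36, the 4 largest differences in each direction are named. Other peaks were chosen after their values were seen.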

Additional observations from a re-analysis of the deposited data

How the results depend on the processing

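No paired analysis was possible because each genotype had a single list, in which replicate numbers cannot be told apart, and no replicate could be left out for the same reason. Between 6 and 8 of the 10 genes had fewer covered bases in the knockout list under all 8 alternatives (other flanks of 0, 10000 or 50000 bases, stricter peaks, equal merging, a call at 2000 bases, and scaling to equal totals). The share of all genes called lower ran from 17.7% (−log10 q threshold of 5) to 46.0% (50000-base flanks) over these. Of 70 differences of single genes, 51 stayed within 1.5 times of the reported one with the same direction, 14 differed by more and 5 turned direction at a gene called as reported. Among the 14, 3 changed sign at RAPGEF1, which was under the threshold (517, 1790.4 and 4209 bases), so 8 differences changed sign in all. A −log10 q threshold of 5 turned SIPA1L2 to 2498 bases, RAP1GAP2 to -2422 and RAP1B to 6342. Peaks of at least 4-fold turned RAP1GAP2 to -13819 and RAP1B to 4751. At that −log10 q threshold the median difference was -2660.5 bases, 4 of the 10 genes were higher, and the list of 36 had 12 lower and 12 higher genes. A call at 2000 bases left 15 of the 36 lower and 4 higher. Sharing changed with the rule. With both lists at −log10 q of 5 or more, 70.8% of knockout peaks were shared (64.9% over the whole list). With both at 4-fold it was 66.7% of knockout peaks (60.0%) and 46.7% of control peaks (52.8%). Against the full opposite list, strong peaks were shared at 97.9% in the knockout list (97.2% over the whole list) and 95.3% in the control list (96.8%). Requiring overlap of 50% of the peak left 77.8% of knockout peaks (interval 69.5 to 84.7), above the 67.6% over the whole list. It left 58.6% of control peaks (61.7%). The cause of these changes was not tested. The merging alternative closed gaps of up to 1444 bases and dropped peaks under 361 bases in both lists, and does not redo the q values. Depth is unknown, so a weak peak missing from a list was not called there, which does not show that the mark was absent.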

Other observations

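Other records reach into several of the windows. At SIPA1L3 the flank shared with WDR87 held 0 covered bases in the knockout list and 690 in the control list, and the flank shared with DPF1, which encodes a SWI/SNF-associated protein, held 0 in both. At SIPA1 the part shared with RELA held 626 bases in the knockout list and 1393 in the control list, and the part shared with PCNX3 held 303 and 750. At RAP1A the overlap with TMIGD3 held 9845 bases in the knockout list and 14535 in the control list. That was most of the difference of the whole window, in the same direction. The non-coding record LINC01160, inside the RAP1A window, held its strongest peak, 1850 bases in the knockout list and 1674 in the control list. The antisense record RAP1GAP2-AS1 held 955 and 768 bases, and SIPA1L1-AS1, at the 5′ end of SIPA1L1, held 422 bases in the knockout list and 0 in the control list.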
